A study of Mus musculus with 6 samples.

Results

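The genes described here are 10 lysosomal proteases: the cathepsins Ctsa, Ctsb, Ctsc, Ctsd, Ctsh, Ctsk, Ctsl, Ctss and Ctsz, and legumain (Lgmn). They were taken by symbol from the deposited gene tables, and all 10 were found among the 55487 genes listed there. All 10 passed the filter on low counts and were tested. Their level was measured by RNA sequencing in primitive macrophages, the first macrophages of the embryo, grown from mouse embryonic stem cells over 12 days with M-CSF, IL-3, SCF, VEGF, activin A, BMP-4 and FGF2. One group of 3 libraries came from wild-type stem cells and one group of 3 from Ts1Cje stem cells, and both were cultured and differentiated in the same way. Ts1Cje mice model Down syndrome: 1 additional copy of a distal part of chromosome 16 is fused to the end of chromosome 12. The study asked why Ts1Cje embryos have fewer microglia, the macrophages of the brain. The replicates are labelled as lots. The labels do not say whether a lot is a separate stem cell line or a separate differentiation, so p-values measure only the spread between these libraries, which may be technical.

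Cathepsins and legumain are made as inactive precursors, sorted to the lysosome and activated there by removal of a propeptide. Most belong to the papain family of cysteine proteases. Ctsd is an aspartic protease, Ctsa a serine carboxypeptidase, and legumain a cysteine protease of another family that cuts after asparagine and helps to mature several cathepsins. In macrophages they break down engulfed proteins, trim antigens and the invariant chain of MHC class II, and cleave Toll-like receptors of the endosome. Cystatins, among them Cst3 and Cstb, inhibit cathepsins of the papain family.

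Library depth was 25484294 to 32658148 counts, with 17586 to 18935 genes detected. Wild-type replicate 1 stood apart: in a principal component analysis of 10797 genes its score on component 1 (49.6% of variance) was -63.38, against -13.43 to 28.53 for the other 5 libraries. All 15 macrophage markers examined were measured well enough to be tested. The neutrophil markers summed to at most 2.80 TPM (a level scaled by gene length and by the library's sum) in any library and the mast cell markers to at most 1.06 TPM. Endothelial markers summed to 5.25 to 21.4 TPM and erythroid ones to 0.635 to 29.4 TPM. Pluripotency markers were at 0 in all 3 wild-type libraries and summed to 1.41 to 2.26 TPM in Ts1Cje. Most of that sum was a single gene, Dppa5a, at 0.887, 1.86 and 2.14 TPM. Sox2 and Esrrb were at 0 in every library, and no pluripotency marker had enough counts to be tested. In such bulk libraries, fewer cells of a type and less RNA per cell cannot be told apart.

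Cathepsins and legumain were among the most abundant transcripts of these cells, and most of that came from Ctsb and Ctsd. The 10 genes together took 6.13%, 5.63% and 5.32% of all counts in wild-type replicates 1, 2 and 3, and 4.66%, 4.98% and 6.08% in Ts1Cje replicates 1, 2 and 3. Ctsb alone took 2.39% to 3.34% of the counts and ranked 1 among all genes in each of the 6 libraries. By TPM, Ctsd ranked 5 and Ctsb 6 among all genes on the mean of the 6 libraries, behind Gm23935, Spp1, Ftl1 and Fth1. Summed over the 10 genes, wild-type libraries held 52252, 46774 and 44901 TPM and Ts1Cje libraries 41121, 44179 and 53625 TPM, of which Ctsb and Ctsd made up 61.7% to 70.5%. The groups overlapped, with means of 47976 ± 3820 and 46308 ± 6519 TPM (SD, n = 3 each), a ratio of Ts1Cje to wild-type of 0.965.

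No cathepsin nor legumain passed the test between genotypes: 0 of 10 had an adjusted p under 0.05 in edgeR's quasi-likelihood test (Benjamini-Hochberg over 13821 genes), and 0 in DESeq2. The same call was made for 0.00724% of all genes tested in edgeR and 0.268% in DESeq2. At an unadjusted edgeR p under 0.05, 1 of the 10 was counted, Ctsk, against 5.79% of all genes. In CPM (counts scaled by library size, not by gene length), the 3 values of one genotype lay wholly outside those of the other for 1 of the 10, Ctsz, against 12.1% of all genes. The log2 fold change (Ts1Cje minus wild-type) was above 0 for 4 of the 10 and for 49.2% of all genes. Its median over the 10 was -0.02, beside -0.01 over all genes tested, whose quartiles were -0.26 and 0.23.

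**Figure D1:**
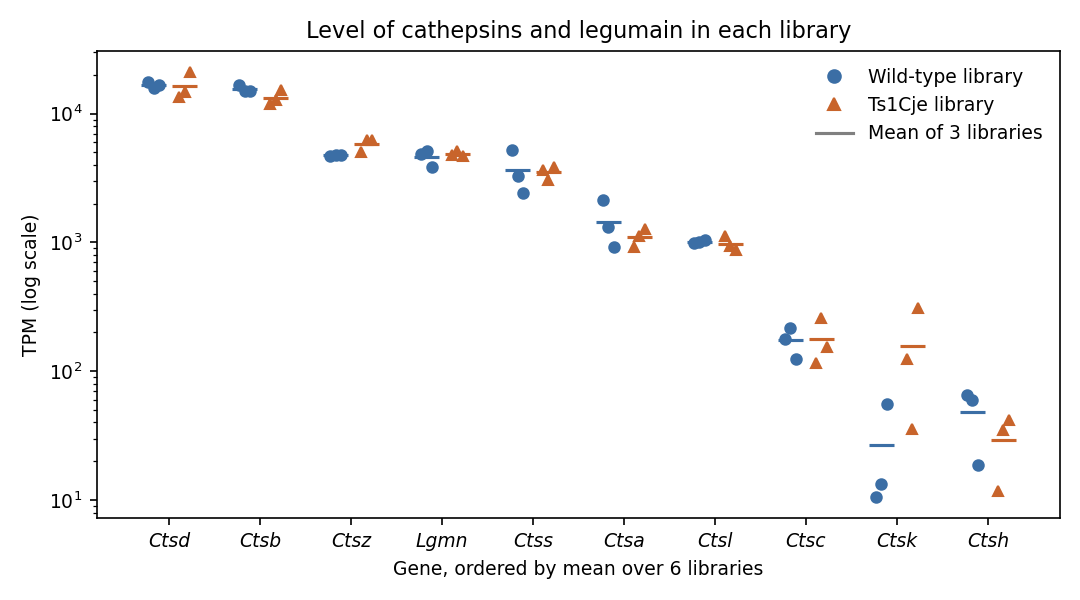
TPM of the 10 genes on a log scale, ordered by their mean over 6 libraries. Circles are wild-type and triangles Ts1Cje libraries, and each bar is the mean of 3. Ctsd and Ctsb lie at 11826 TPM or above in every library, and Ctsk and Ctsh show the widest scatter.

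On the deposited scale, the level per length fell into steps. Ctsd, with a mean of 16554 TPM over the 6 libraries, was above Ctsb, with 14394 TPM, in all 6 libraries, though the ranges of these neighbours overlapped. Next came Ctsz with 5289, Lgmn with 4746 and Ctss with 3580 TPM, each overlapping its neighbour. Ctsz was above Lgmn in 4 of 6 libraries and Lgmn above Ctss in 5 of 6. Ctsa with 1278 and Ctsl with 995 TPM also overlapped, and Ctsa was the higher in 4 of 6. The lowest were Ctsc with 175, Ctsk with 91.4 and Ctsh with 38.6 TPM, again with overlap between neighbours. No overlap was seen at the gaps between Ctsb and Ctsz, between Ctss and Ctsa, and between Ctsl and Ctsc, where the means differed 2.72-fold, 2.80-fold and 5.68-fold.

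This order depends on the length by which counts are divided. The deposited TPM used the length of all annotated exons of a gene, which exceeds the shortest principal coding transcript for 8 of the 10 genes. Ctsl has 6489 bases of annotated exon but 1971 bases in that transcript, a ratio of 3.29. The same ratio was 2.78 for Ctsh, 2.33 for Ctsc, 1.86 for Ctsa, 1.28 for Ctsb, 1.27 for Lgmn and 1.11 for Ctsd, while the lengths of Ctsk and Ctsz were equal and those of Ctss nearly so. Dividing by the shorter length raised Ctsl from 995 to 3275 and placed it above Ctsa, at 2377, and close below Ctss, at 3588. The gap below Ctss was thus not kept on this scale. The shorter length also placed Ctsb, at 18364, level with Ctsd, at 18298. Reads shared with neighbours, described below, limit both of these levels. Lgmn, at 6009, came above Ctsz, at 5289, and Ctsh, at 107, above Ctsk, at 91.4. Of the 10 genes, 6 exceeded 1000 TPM on the deposited scale and 7 on this one, an alternative chosen after seeing the data. Fold changes between genotypes do not depend on this length.

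**Figure D2:**
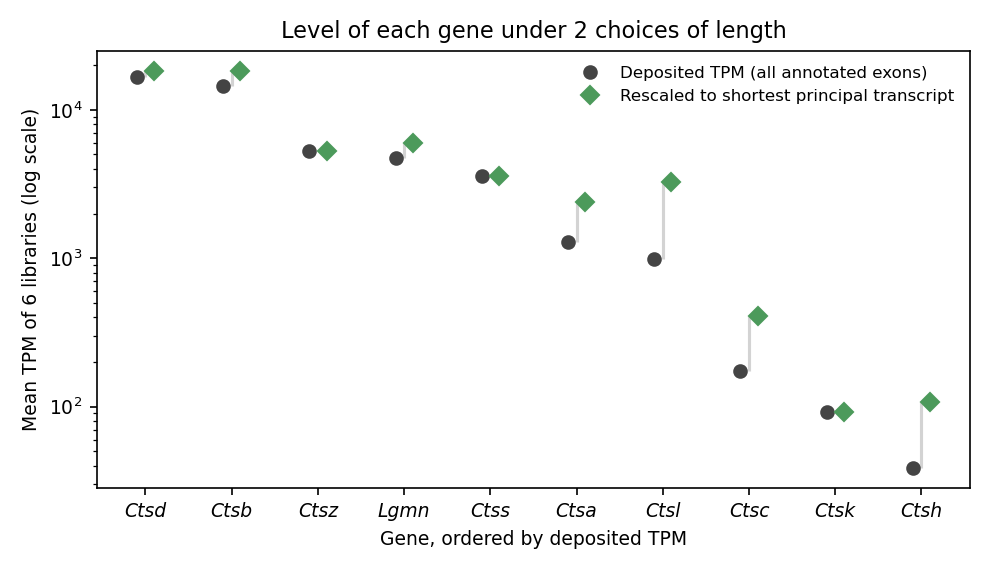
Mean TPM of 6 libraries on a log scale for each gene, as deposited (dots, all annotated exons) and rescaled to the shortest principal transcript (diamonds, without a new scaling of the sum). Ctsl moves most, from 995 to 3275, while Ctsz, Ctss and Ctsk hardly move.

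Among the papain-family endopeptidases, Ctsb (ENSMUSG00000021939, mm10 chr14:63122462-63145923, plus strand, 10 exons in its principal transcript) was the most abundant. Cathepsin B cuts within proteins and also removes dipeptides from their carboxyl end. Its level was 16633, 15087 and 14977 TPM in the wild-type libraries and 11826, 12703 and 15141 TPM in Ts1Cje. Only Ts1Cje replicate 3 reached the wild-type values, so the groups overlapped. The log2 fold change was -0.22 ± 0.26 (SE, 95% interval -0.83 to 0.39), with an adjusted p of 0.880. Without Ts1Cje replicate 3 it was -0.40, and the remaining groups did not overlap, as for 21.4% of all genes without that library.

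Ctsl (ENSMUSG00000021477, chr13:64359337-64370890, minus strand, 8 exons) was the steadiest of the 10. Cathepsin L is an endopeptidase of lysosomes in nearly all tissues. Its level was 983, 1004 and 1047 TPM in wild-type and 1130, 933 and 870 TPM in Ts1Cje, with the Ts1Cje libraries lying on both sides of the wild-type ones. In CPM, the highest library was 1.21 times the lowest, and only 4.56% of 10797 genes had a smaller range. Between genotypes the log2 fold change was -0.05 ± 0.17 (95% interval -0.44 to 0.34).

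Ctss (ENSMUSG00000038642, chr3:95526786-95556403, plus strand, 8 exons) encodes an endopeptidase that stays active near neutral pH and degrades the invariant chain in antigen-presenting cells. Its level was 5179, 3311 and 2431 TPM in wild-type and 3643, 3070 and 3848 TPM in Ts1Cje. The 3 wild-type libraries held both the highest and the lowest value. With a log2 fold change of -0.04 ± 0.30 (95% interval -0.75 to 0.66) no difference was detectable. Leaving out wild-type replicate 1 turned the sign, to 0.31 ± 0.22.

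The wild-type libraries were nearly equal for Ctsz (ENSMUSG00000016256, chr2:174427493-174439039, minus strand, 6 exons), whose product, also named cathepsin X, removes single residues from the carboxyl end. Its level was 4655, 4764 and 4799 TPM in wild-type and 5038, 6249 and 6231 TPM in Ts1Cje. All 3 Ts1Cje values exceeded the highest wild-type value, replicate 1 by a narrow margin. In CPM the means were 2282 ± 16.1 and 2835 ± 452 (SD, n = 3 each). The edgeR fold was 1.24 (95% interval 0.918 to 1.68), with an unadjusted p of 0.136 and an adjusted p of 0.805. With each library left out in turn, the log2 fold change ran from 0.20 to 0.43.

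Ctsh (ENSMUSG00000032359, chr9:90054152-90076089, plus strand, 12 exons) encodes an aminopeptidase, and its deposited TPM was the lowest of the 10. It stood at 65.1, 59.9 and 18.6 TPM in wild-type and 11.8, 34.7 and 41.5 TPM in Ts1Cje. One library of each genotype, wild-type replicate 3 and Ts1Cje replicate 1, was far below the others. The CPM of the highest library was 5.84 times that of the lowest, and 4.65% of 10797 genes ranged at least as widely. The log2 fold change was -0.69 ± 0.58 (95% interval -2.04 to 0.67), with an adjusted p of 0.836. It was -1.10 without Ts1Cje replicate 3, -0.39 without wild-type replicate 1 and -0.29 without Ts1Cje replicate 1.

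Ctsc (ENSMUSG00000030560, chr7:88278085-88310888, plus strand, 7 exons) encodes dipeptidyl peptidase I, which activates the serine proteases of granules. Its level was 177, 218 and 124 TPM in wild-type and 116, 259 and 155 TPM in Ts1Cje. Both the highest and the lowest library were Ts1Cje. Ts1Cje differed from wild-type by 0.03 ± 0.32 in log2 (95% interval -0.73 to 0.78). Its known substrates were nearly missing: of 10 granule protease genes, 7 were at 0 in all 6 libraries, none could be tested, and the highest value of any was 1.86 TPM, for Elane (neutrophil elastase) in Ts1Cje replicate 1.

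Of the 10 genes, Ctsk had the widest spread and the largest difference. Ctsk (ENSMUSG00000028111, chr3:95499256-95509362, plus strand, 8 exons) encodes the collagen-degrading protease best known from osteoclasts. Its level was 10.6, 13.4 and 55.9 TPM in wild-type and 125, 35.9 and 308 TPM in Ts1Cje. These rest on 136, 180 and 736 counts in wild-type and 2065, 472 and 4922 in Ts1Cje. The groups overlapped, since wild-type replicate 3 was above Ts1Cje replicate 2. The highest library had 30.5 times the CPM of the lowest, and 0.241% of 10797 genes ranged at least as widely.

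For Ctsk the mean CPM was 82.2 ± 77.3 in Ts1Cje and 13.3 ± 12.4 in wild-type (SD, n = 3 each). The edgeR log2 fold change was 2.63 ± 0.90, a 6.17-fold difference with a 95% interval from 1.43 to 26.6. Its unadjusted p was 0.0210 and its adjusted p 0.792, so it did not pass the test. The unadjusted p was 0.102 without Ts1Cje replicate 3, 0.0683 without wild-type replicate 2 and 0.0524 without wild-type replicate 1. Leaving out wild-type replicate 3 gave 0.00588, Ts1Cje replicate 2 gave 0.00610 and Ts1Cje replicate 1 gave 0.0315. The log2 fold change ranged from 1.55, without Ts1Cje replicate 3, to 3.75, without wild-type replicate 3.

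Beside these values stand those of the osteoclast markers. Of 8 markers, Calcr, the calcitonin receptor, was at 0 in all libraries, and Oscar and Mmp9 did not exceed 0.249 and 0.454 TPM. Acp5, an acid phosphatase of osteoclasts and some macrophages, was at 15.9, 38.8 and 55.8 TPM in wild-type and 44.9, 44.6 and 53.3 TPM in Ts1Cje. Dcstamp, a cell fusion protein, was at 13.4, 2.49 and 18.7 TPM in wild-type and 37.6, 5.91 and 6.67 TPM in Ts1Cje. The summed list, almost all of it Atp6v0d2, was highest in wild-type replicate 1 at 2135 TPM, where Ctsk was lowest. The mesenchymal markers, genes of another cell type that can make Ctsk, summed to 7.45 to 19.6 TPM in wild-type and 4.85 to 33.5 TPM in Ts1Cje. Their sums in Ts1Cje replicates 1, 2 and 3 were 4.85, 33.5 and 6.23 TPM. The part of osteoclast-like or mesenchymal cells in the Ctsk values was not tested.

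Ctsk and Ctss are neighbours on chromosome 3, with 17424 bases from the end of the first to the start of the second, on the same strand. Their values did not run together in all libraries: Ctss was highest in wild-type replicate 1, where Ctsk was lowest. Within wild-type their orders were opposite. Within Ts1Cje the order was the same for both, with replicate 3 highest and replicate 2 lowest. In Ts1Cje replicate 3, Ctsk was at 308 TPM and Ctss at 3848 TPM, in wild-type replicate 1 at 10.6 and 5179 TPM.

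**Figure D3:**
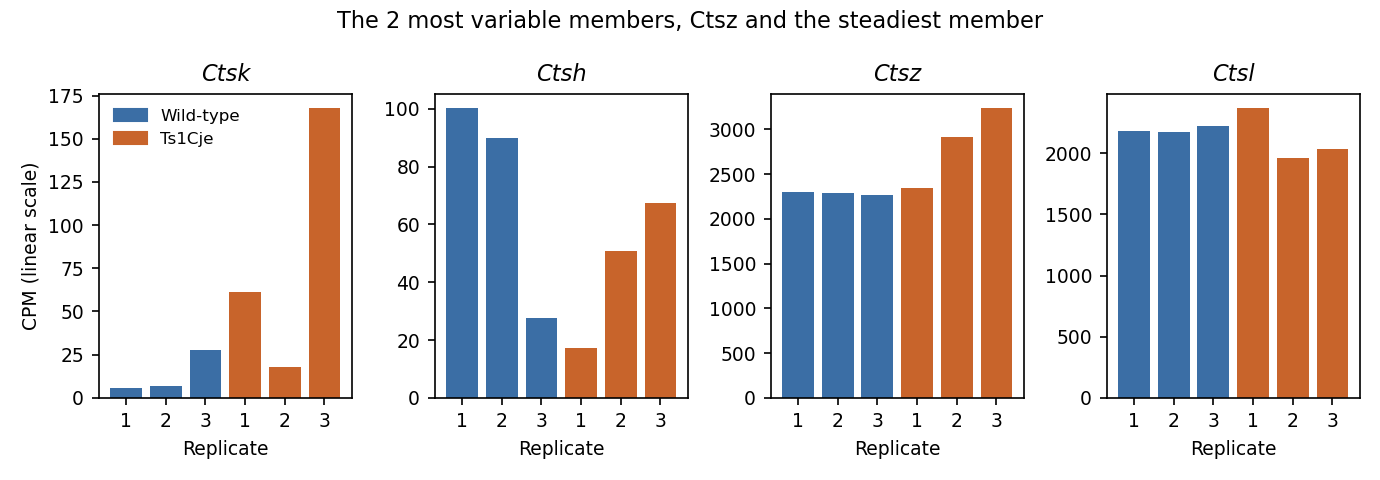
CPM on a linear axis from 0 for each of the 6 libraries, wild-type blue and Ts1Cje orange, one bar per library. Ctsk and Ctsh vary most between libraries, Ctsz is higher in each Ts1Cje library than in any wild-type one, and Ctsl varies least.

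Ctsd (ENSMUSG00000007891, chr7:142375911-142388038, minus strand, 9 exons), the aspartic endopeptidase of the lysosome, had the highest level per length. It was at 17555, 15859 and 16677 TPM in wild-type and 13541, 14613 and 21081 TPM in Ts1Cje. The 3 wild-type libraries lay close together, and the Ts1Cje libraries lay below and above them. The genotype means were nearly equal, with a log2 fold change of -0.00 ± 0.28 (95% interval -0.65 to 0.64). Without Ts1Cje replicate 3, the only one above wild-type, it was -0.30, and the groups did not overlap (21.4% of all genes).

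Ctsa (ENSMUSG00000017760, chr2:164832873-164841032, plus strand, 15 exons) encodes a serine carboxypeptidase that also shields the sialidase Neu1 and the beta-galactosidase Glb1 from degradation. Its level was 2119, 1316 and 916 TPM in wild-type and 917, 1116 and 1281 TPM in Ts1Cje. Wild-type replicate 1 was far above all others, and the remaining libraries overlapped. The log2 fold change was -0.39 ± 0.34 (95% interval -1.17 to 0.40, adjusted p 0.838). Without that library it was 0.01 ± 0.26.

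Legumain, Lgmn (ENSMUSG00000021190, chr12:102394084-102439813, minus strand, 13 exons), lies on the chromosome to which the extra segment is attached, but is not part of that segment. None of the 10 genes is on chromosome 16. Its level was 4874, 5141 and 3855 TPM in wild-type and 4773, 5165 and 4670 TPM in Ts1Cje. Only wild-type replicate 3 was apart, below the others. Legumain had a log2 fold change of 0.08 ± 0.20 (95% interval -0.38 to 0.54).

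**Figure D4:**
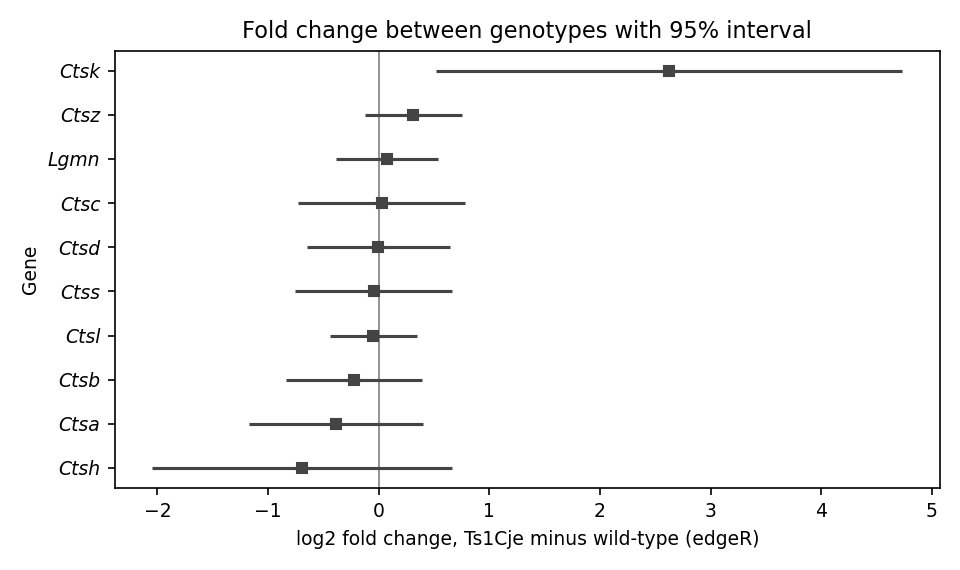
Log2 fold change (Ts1Cje minus wild-type) of each gene from edgeR with its 95% interval. The interval excludes 0 for Ctsk alone, before adjustment over all genes, and is narrowest for Ctsl, -0.44 to 0.34.

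Reads at the ends of some of these genes can belong to a neighbour, and no source used here gives the strand setting of the counting. Ctsa shares 495 exonic bases with Pltp on the opposite strand. Pltp had 8428, 3188 and 1966 counts in wild-type and 1854, 2035 and 6656 in Ts1Cje, and was, like Ctsa, highest in wild-type replicate 1. Ctsb shares 774 bases with Fdft1, which had 1144 to 3564 counts against 669202 to 969072 for Ctsb. Ctsl shares 1742 bases with the antisense gene Gm47123 and 395 with the pseudogene Gm49230, and Ctsd 808 with Gm49369. Gm49230 and Gm49369 lie on the same strand as the protease gene. These 3 were at 0 counts in all libraries. Without strand, reads of bases shared with the opposite strand cannot be told apart, and on the same strand not even with it. No source used here says how reads shared between genes were counted. As these 3 genes had 0 counts, no read was counted both for them and for Ctsd or Ctsl. Shared reads may have gone to Ctsd and Ctsl alone or been left uncounted, which would lower the levels of both. The counts of 0 therefore do not show that Ctsd or Ctsl lost no reads.

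Libraries of the same genotype differed widely for several of these genes. Ts1Cje replicate 1 held the lowest CPM of 5 of the 10 genes, namely Ctsa, Ctsb, Ctsc, Ctsd and Ctsh. Wild-type replicate 3 held the lowest of Ctss, Ctsz and Lgmn. Wild-type replicate 1 held the highest of Ctsa, Ctsb, Ctsh and Ctss, and Ts1Cje replicate 3 the highest of Ctsd, Ctsk and Ctsz. Averaged over the 10 genes after each was standardised, the deviation was 0.50, 0.09 and -0.61 SD in the wild-type and -0.49, -0.16 and 0.67 SD in the Ts1Cje libraries. One library of each genotype was thus high and one of each low.

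The genes did not all share this profile. Over the 6 libraries Pearson's r to it was 0.85 for Ctsa, 0.82 for Ctsh, 0.80 for Ctss, 0.79 for Ctsd, 0.73 for Ctsb and 0.72 for Lgmn. It was 0.48 for both Ctsc and Ctsz, -0.01 for Ctsk and -0.47 for Ctsl. Each gene is itself part of the profile and all share the same 6 libraries, so these values are a description. The macrophage markers summed to 49222, 34755 and 24034 TPM in wild-type and 27337, 33999 and 46026 TPM in Ts1Cje. In both this sum, Lyz2 included, and the protease profile, wild-type replicate 1 and Ts1Cje replicate 3 were highest and wild-type replicate 3 and Ts1Cje replicate 1 lowest. The part of macrophage content in the protease levels was not tested. Lyz2, lysozyme, alone ranged from 5333 to 24366 TPM. Without Lyz2 the other 14 markers summed to 26197, 24554 and 18701 TPM in wild-type and 19699, 19611 and 21660 TPM in Ts1Cje, and this order no longer held: wild-type replicate 2 was above Ts1Cje replicate 3, and Ts1Cje replicate 2 below Ts1Cje replicate 1.

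**Figure D5:**
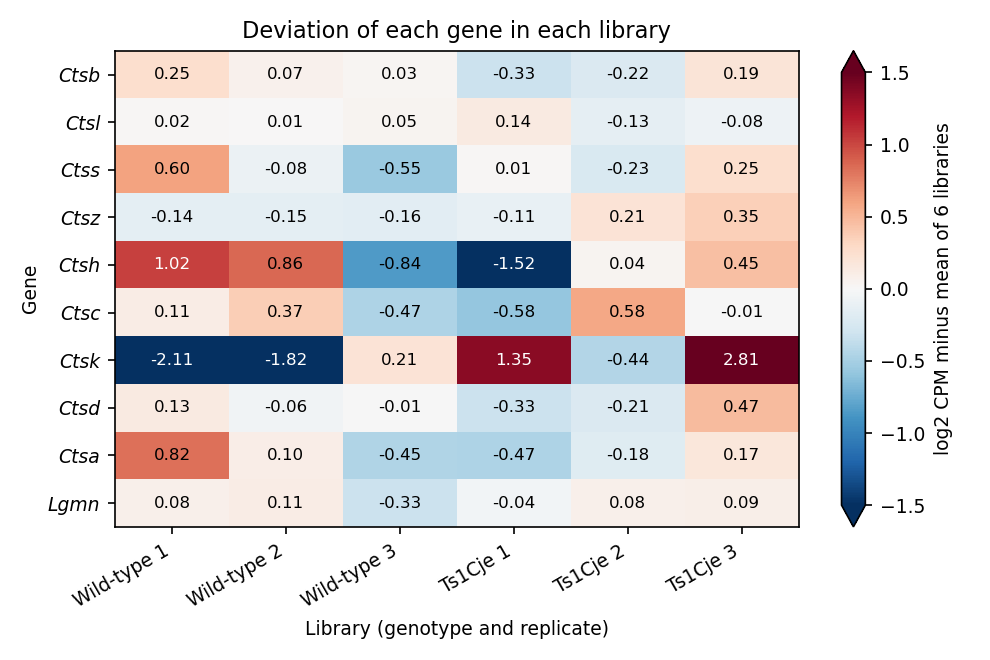
Deviation of each gene in each library from its mean over 6 libraries, in log2 CPM, with red above and blue below the mean and colours capped at 1.5. Ctsa, Ctsh and Ctss are high in wild-type replicate 1, Ctsk is lowest there at -2.11 and highest in Ts1Cje replicate 3 at 2.81.

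Among 5079 other well-expressed genes (log2 CPM over 5 on average), the 5 most like the mean profile were Laptm4a, Eif3e, Selenop, Atg5 and Arap1, with r from 0.979 to 0.997 over 6 libraries. Laptm4a, a membrane protein of lysosomes, had 417, 365 and 290 CPM in wild-type and 297, 326 and 451 CPM in Ts1Cje. Selenop, a secreted selenoprotein, ranged more widely, with 9585, 3943 and 1269 CPM in wild-type and 1465, 3325 and 9504 CPM in Ts1Cje. Each r rests on 6 libraries that all these genes share.

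Promoter sequence was taken from RefSeq (GRCm38.p6) for 8 of the 10 genes, all but Ctsb and Ctsh, in 10 windows that reach 250 bases before each start. Both strands were searched for the E-box TCACGTG of the CLEAR element, which Tfeb, Tfe3 and Mitf bind, for its shorter core CACGTG, for GAGGAA, the core of PU.1 (Spi1) sites, and for an interferon response element read as GAAA followed after 2 free bases by GAAA again. The longer E-box always contains its core and was in 3 of the 10 windows (Ctsa, Ctsd and Lgmn), against 3.13% of 32851 windows of all genes. The core was in 4 windows, those 3 and Ctsl, against 6.02%. The PU.1 core was in 3 (Ctsc, Ctsk and Ctss), against 23.3%, and the interferon element in 1 (Ctss), against 2.98%. The lines that follow show each E-box core and the interferon element in capitals, as the letters in which these proteases resemble or differ from one another. The Ctsa match lies 12 bases before an internal start of the gene, and the Ctsa window further upstream held none. The Lgmn match likewise lies before an internal start of its gene, and the Lgmn window further upstream held none. The starts used for Ctsd and Ctsl also lie inside their annotated genes, and no window further upstream was searched for either gene. The Ctsd match further from its start lies upstream of the annotated gene. The matches of Ctsa and Ctsl and the Ctsd match nearer the start fall in annotated exons of these genes. A match is a description of letters and not a bound site.
Ctsa, chr2:164833749-164833772, plus strand: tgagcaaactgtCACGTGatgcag
Ctsd, chr7:142388055-142388077, minus strand, 245 bases before the start: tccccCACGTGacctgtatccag
Ctsd, chr7:142387908-142387937, minus strand, 98 bases before the start: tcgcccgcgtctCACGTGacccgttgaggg
Lgmn, chr12:102439124-102439153, minus strand, 49 bases before the start: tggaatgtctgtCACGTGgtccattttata
Ctsl, chr13:64370739-64370768, minus strand, 236 bases before the start: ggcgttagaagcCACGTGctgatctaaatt
Ctss, chr3:95526755-95526784, plus strand, 21 bases before the start: gtctttaaatGAAACCGAAAtgaaagttca

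The genes around these proteases were followed in 7 lists: regulators, inhibitors, lysosomal partners, sorting genes, processed proteins, other cathepsins and the granule proteases above. Over these lists 49 genes were tested. At an adjusted p under 0.05, 0 passed in edgeR and 0 in DESeq2, and 4 had an unadjusted edgeR p under 0.05, beside 5.79% of all genes. Of 11 regulators of lysosomal genes, all tested, 4 had a log2 fold change above and 7 below 0. Tfec, a relative of Tfeb found in macrophages, had the only unadjusted p under 0.05, at 0.0429 (log2 fold change 0.55 ± 0.23, adjusted p 0.792). Tfec stood at 12.0, 15.7 and 21.2 TPM in wild-type and 20.5, 25.5 and 24.7 TPM in Ts1Cje, with wild-type replicate 3 inside the Ts1Cje range. The most abundant of the list, Rragc, a GTPase that tethers mTORC1 and Tfeb to the lysosome, had 0.31 ± 0.18. Tfeb, Tfe3 and Mitf had -0.37 ± 0.31, -0.09 ± 0.18 and -0.46 ± 0.29. Values for Spi1 and Irf8, macrophage transcription factors, were 0.17 ± 0.16 and -0.19 ± 0.37.

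The most abundant endogenous inhibitors were the cystatins Cstb and Cst3. Of 14 inhibitor genes with counts listed, 7 were tested and 6 were above and 1 below 0, with a median of 0.40. Over all genes, 49.2% were above 0 and the median was -0.01. Among the 6, Serpinb1a, Cst7, Ctla2b and Ctla2a were low, at 1.09, 1.26, 0.782 and 3.96 TPM on average. Of the inhibitor genes not tested, 4 stefin genes were at 0 in every library. Cstb, which acts inside the cell, was at 1532, 1940 and 2853 TPM in wild-type and 2956, 2737 and 2607 TPM in Ts1Cje. Wild-type replicates 1 and 2 lay below all Ts1Cje libraries and replicate 3 among them, giving 0.40 ± 0.22 on the log2 scale (adjusted p 0.792). Cst3, which is secreted, was at 2577, 1662 and 1326 TPM in wild-type and 1314, 1255 and 1677 TPM in Ts1Cje, and was highest in wild-type replicate 1, the library with least Cstb.

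The sum of Cst3 and Cstb was steadier than either, at 3602 to 4283 TPM. The 7 papain-family cathepsins summed to 25205 ± 2221 TPM in wild-type and 23923 ± 2417 TPM in Ts1Cje (SD, n = 3 each). Their ratio to these 2 inhibitors was 6.74, 6.79 and 5.61 in the wild-type libraries, against 5.13, 5.83 and 6.21 in the Ts1Cje libraries, with overlap. This is a ratio of transcript levels, not of protein. Serpinb1a and Ctla2a, an inhibitor of cathepsin L-like proteases, had the smallest p of the list beside Cstb. Their log2 fold changes were 2.42 ± 1.11 and 0.82 ± 0.45, at no more than 2.64 and 6.73 TPM in any library.

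Of 11 lysosomal partners and other lysosomal peptidases, 10 were tested, with 3 above and 7 below 0 and a median of -0.14. At an unadjusted p under 0.05 there were 3, each with an adjusted p of 0.792 and with groups that did not overlap. Over all genes, 5.79% had such a p and 12.1% such groups. Neu1, the sialidase that Ctsa protects, was at 123, 108 and 171 TPM in wild-type and 185, 200 and 176 TPM in Ts1Cje, a log2 fold change of 0.49 ± 0.18. Dpp7, a dipeptidyl peptidase, was at 126, 162 and 165 TPM in wild-type and 169, 240 and 278 TPM in Ts1Cje, with 0.62 ± 0.23. Prcp, a carboxypeptidase related to Dpp7, was at 46.0, 48.6 and 46.9 TPM in wild-type and 35.2, 24.9 and 38.3 TPM in Ts1Cje, with -0.51 ± 0.20.

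The other partner of Ctsa, Glb1, had a log2 fold change of -0.25 ± 0.17, and its difference from Neu1 was not tested. Psap, the precursor of the saposins, which Ctsd and other proteases cleave, was the most abundant of this list. It was at 7462, 4531 and 3405 TPM in wild-type and 3472, 3779 and 6255 TPM in Ts1Cje, high in the libraries where the mean protease profile was high.

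All 10 genes for sorting and uptake of lysosomal enzymes were tested and 6 were above and 4 below 0. M6pr, the cation-dependent mannose 6-phosphate receptor, was the most abundant, at 279 to 335 TPM, with a log2 fold change of -0.02 ± 0.15. Lrp1, an endocytic receptor, was at 1244 to 1454 CPM in Ts1Cje and 1491 to 1828 CPM in wild-type. These groups did not overlap in CPM, but in TPM they did, at 209 to 253 and 246 to 315. The log2 fold change of Lrp1 was -0.34 ± 0.17 and the adjusted p 0.792. Gnptab, which adds the mannose 6-phosphate tag, had 0.31 ± 0.22, and Gga1, a sorting adaptor, 0.10 ± 0.15.

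Transcripts of proteins that cathepsins and legumain process for immune recognition, and of partners of these proteins, were mostly low here. Of 11 such genes 8 were tested and 5 were above and 3 below 0. Cd74, the invariant chain cleaved by Ctss, was at 2.18, 9.70 and 6.56 TPM in wild-type and 16.5, 9.10 and 8.11 TPM in Ts1Cje, far below Ctss itself. Ifi30, a lysosomal thiol reductase matured by proteolysis, had 0.39 ± 0.17 (adjusted p 0.792). H2-DMa, a class II peptide exchanger, had 1.12 ± 0.55 at no more than 1.73 TPM. The most abundant gene of the list was Unc93b1, which carries Toll-like receptors to the endosome, at 411 to 876 TPM and with -0.40 ± 0.25. Tlr7, such a receptor, was not low, at 123 to 178 TPM and with 0.02 ± 0.20.

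Other mouse cathepsins were low or undetected in these cells. Of 14 listed, 8 were at 0 in all 6 libraries, among them Ctsg and several cathepsins of the placenta, and 3 were tested. Ctso was at 60.4 ± 9.88 TPM in wild-type and 56.9 ± 9.09 TPM in Ts1Cje (SD, n = 3 each), with a log2 fold change of -0.08 ± 0.20. Ctsf was at 52.2 ± 7.96 and 47.3 ± 18.7 TPM (SD, n = 3 each), with -0.12 ± 0.33. Both had a higher mean TPM than Ctsh on the deposited scale, but in wild-type replicates 1 and 2 Ctsf was below Ctsh. This order depends on gene length: the shorter length raised Ctsh to 107, and such a length was not examined for Ctso and Ctsf. Ctse, an aspartic protease related to Ctsd, did not exceed 0.956 TPM.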

How the data were processed

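The 6 libraries (3 wild-type, 3 Ts1Cje) were grouped by their labels. RNA was extracted with a Nucleospin RNA XS kit and libraries were made with the SMART-seq HT Plus kit, per the labels' protocols. Per the submitters' processing notes, which give no roles or order, the tools were featureCounts 1.6.3, HISAT2 2.1.0, Trimmomatic 0.38 and FastQC 0.11.7 and the build mm10. No source used here gives the strand or multimapping setting. The deposited files hold the authors' raw counts per gene and TPM, one column per library, and every column was matched by its name. The deposited TPM equalled counts divided by the GENCODE M21 exon length and rescaled to 1 sum per library (11677 of 11865 genes with at least 10 counts in every library, relative tolerance 0.001).

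Genotypes were compared on the counts of all genes with edgeR 4.0.16 in R 4.3.3: filterByExpr (count minimum 10, total minimum 15), TMM factors, quasi-likelihood test with genotype as the only term, and Benjamini-Hochberg adjustment over 13821 genes with a threshold of 0.05. SE is the log2 fold change divided by the root of F. CPM use TMM-scaled totals, and log2 CPM a prior count of 2. Levels are TPM. Without molecular identifiers, reads amplified by PCR do not count independent molecules. The tests were also run on simulated counts with known changes. These had no outlying library such as wild-type replicate 1, and no result here rests on them.

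Alternatives were RLE and upper-quartile factors, no filter, a stricter filter (CPM above 1 in 3 libraries), DESeq2 1.42.0, limma-voom (limma 3.58.1), limma on log2 TPM (pseudocount 1 or 0.1; TPM minimum of 1 or none), a block for the replicate number, and omission of each library. All 10 genes are named. Of each pathway list, the text names genes with an unadjusted p under 0.05, otherwise up to 3 with the smallest p, and the most abundant. Others, such as Tfeb, Spi1 or Cd74, were added after their values were seen. The 10 genes and the lists were chosen with earlier results of these data known. Of the 16 inhibitor symbols listed, BC100530 and Gm5483 were not analysed here.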

Additional observations from a re-analysis of the deposited data

How the results depend on the processing

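Under all alternatives run, 0 of the 10 proteases were called. The number called among all genes was 1 in the edgeR test as described, 3 without a filter on low counts, 44 with DESeq2 and 0 with the replicate block, and 1 to 6 with a library left out, 6 without wild-type replicate 3. The labels do not say whether replicate numbers pair the libraries. Deviations from the genotype mean correlated at -0.29, -0.04 and -0.17 for same-numbered libraries, and at -0.125 to 0.288 for the other pairs. Such deviations cancel within each genotype, so these values cannot decide it. With the replicate block, Ctsk had 2.49 ± 0.43 (log2, unadjusted edgeR p 0.00182, adjusted p 0.932). Without a filter on low counts, its unadjusted edgeR p was 0.00086 and its adjusted p 0.370. Ctsk, Ctsz, Ctsb and Ctsh kept their direction under every alternative run, and the adjusted p of Ctsk was 0.171 to 0.990. With a library left out, 0 to 1 of the proteases had an unadjusted p under 0.05, and 1 to 3 of 10 had groups that did not overlap, against 18.6% to 36.3% of all genes. There were 3 without wild-type replicate 3 (Ctsk and Ctsz higher, Ctsh lower; 36.3% of all genes) and 3 without Ts1Cje replicate 3 (Ctsz higher, Ctsb and Ctsd lower). The median log2 fold change of the 10 ran from -0.11 to 0.05 and the summed TPM ratio from 0.889 to 1.02, and the ratio of summed CPM was 0.924. Of the log2 fold changes, 6 turned sign under some alternative: those of Ctsc, Ctss, Ctsd, Lgmn and Ctsl, all within 0.1 of 0, and that of Ctsa. The cause was not tested. For Ctsc they were -0.011 with upper-quartile factors, -0.0026 with limma-voom, -0.015 on log2(TPM + 1) with or without the TPM minimum and on log2(TPM + 0.1), and -0.0063 with the replicate block. For Ctss they were 0.018 with limma-voom, 0.015 on each log2 TPM scale and 0.018 with the replicate block, and for Ctsd 0.0062 without a filter. With a library left out, the ranges were -0.31 to 0.27 for Ctsc, -0.27 to 0.31 for Ctss, -0.30 to 0.15 for Ctsd, -0.63 to 0.0076 for Ctsa, -0.045 to 0.15 for Lgmn and -0.13 to 0.0088 for Ctsl. With 3 libraries a genotype precision is low, and the counts of each protease were at least 136 in every library (the lowest, Ctsk).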
